A study of Rattus norvegicus with 8 samples.

Results

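The genes that make, degrade and read out cyclic AMP were examined in the medial thalamus of rats conditioned by repeated tracheal occlusion. They comprised the adenylyl cyclases, the cyclic nucleotide phosphodiesterases, and the regulatory and catalytic subunits of protein kinase A (PKA). They were taken as every non-control probe whose gene name on the array was Adcy followed by a number, Pde followed by a number and a letter, or began with Prkar or Prkac, which gave 38 genes of 35561 distinct gene names, on 50 of 41012 distinct probes. The scanner software marks spots that stand well above background, and a probe was kept when 4 or more of the 8 arrays had that mark, which left 33 of the 38 genes on 43 probes among 27154 kept probes. Each gene was read from its brightest kept probe.

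The occlusion group was 4 male Sprague-Dawley rats whose trachea was closed for 3 to 10 breaths at a time, with about 30 s of recovery between closures, in daily sessions over 10 days while conscious. The control group was 4 male Sprague-Dawley rats that also had the surgery and attended daily sessions but were given no occlusions. All rats were killed by anesthetic overdose within 10 min of the last session, and their age was not given in the sources used here. Total RNA of the medial thalamus (1 µg per animal) was labelled with Cy3 and hybridised to a 1-colour Agilent rat expression array, 1 array per animal.

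Cyclic AMP is made from ATP by adenylyl cyclases, which stimulatory G proteins switch on and inhibitory G proteins hold back. Phosphodiesterases end the signal by hydrolysing cyclic AMP, cyclic GMP or both. PKA is a tetramer in which regulatory subunits hold catalytic subunits silent until cyclic AMP binds. In thalamic relay neurons cyclic AMP also acts directly on pacemaker channels that help to set burst or tonic firing.

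The probes that the results turn on are 60 bases long and are printed 5′ to 3′ as the scanner files give them, with their rn3 positions. The single probe of Pde4b and the brightest of 3 probes of Pde4d are shown because the occlusion and control arrays did not overlap on them, the Pde6h probe because it had the largest difference of all 33 genes, and the other Pde4d probes and both Prkar2b probes because probes of 1 gene differed in size of difference.
Pde4b, chr5:123538331-123538390, plus strand: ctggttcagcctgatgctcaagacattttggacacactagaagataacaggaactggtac
Pde4d probe 1, chr18_random:268765-268824, plus strand: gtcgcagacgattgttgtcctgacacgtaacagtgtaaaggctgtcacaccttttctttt
Pde4d probe 2, chr18_random:266188-266247, plus strand: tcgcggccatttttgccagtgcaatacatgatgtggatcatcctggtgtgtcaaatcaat
Pde4d probe 3, chr2:41232975-41233034, plus strand: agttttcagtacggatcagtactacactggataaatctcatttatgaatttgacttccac
Pde6h, chr4:174255071-174257529, plus strand: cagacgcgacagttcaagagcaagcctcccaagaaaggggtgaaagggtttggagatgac
Prkar2b probe 1, chr6:50238545-50238603, minus strand: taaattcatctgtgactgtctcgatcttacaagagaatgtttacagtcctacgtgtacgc
Prkar2b probe 2, chr6:50244176-50244235, minus strand: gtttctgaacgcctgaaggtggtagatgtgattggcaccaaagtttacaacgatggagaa

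The Pde6h probe covers 2459 bases of the genome, so its 60 bases are not contiguous in rn3. Pde4d probe 2 lies 2577 bases upstream of probe 1 on an unplaced piece of rn3, whereas the later rat assembly GRCr8 puts the whole gene on chromosome 2, where probe 3 lies in rn3. Prkar2b probe 2 lies 5631 bases upstream of probe 1 in the direction of transcription. The chromosome in rn3 also differed from that in GRCr8 for Adcy2 (17 in rn3 and 1 in GRCr8) and for both probes of Prkar1a (X in rn3 and 10 in GRCr8). Which exon or untranslated region a probe lies in was not analysed here.

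All levels below are log2 of the processed signal minus the array's 75th percentile, so 0 is the level of that percentile, and differences are occlusion minus control on this log2 scale. The 75th percentile itself ran between 1439 and 2216 signal units over the 8 arrays, and 65.0 to 71.6% of spots were well above background. The arrays lay on 2 slides with 2 arrays of each group on either, occlusion 1 and 3 with control 1 and 4 on slide 1. The first principal component (37.7% of the variance) separated the slides, and within each slide it also set the groups apart. On slide 1 it was -50.6 and -49.9 for occlusion against -18.2 and -30.7 for control arrays. On slide 2 it was 14.9 and 20.4 against 52.8 and 61.3. Over all 27154 kept probes limma called 0 at an adjusted p under 0.05, with 3010 at an unadjusted p under 0.05, and the median difference was 0.02.

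Marker genes of the tissue were read on the same arrays. Thalamic relay markers passed the filter for 10 of 13 genes, and 9 of those 10 were above background on all 8 arrays. Their mean level lay between 0.52 and 1.08 on occlusion arrays and between -0.78 and 0.55 on control arrays, with control 3 lowest and all 10 higher in the occlusion mean. Markers of reticular and other inhibitory neurons, kept for 8 of 9 genes, had a mean level between -1.06 and 0.61 on occlusion arrays and between 0.37 and 1.65 on control arrays, with control 3 highest and 7 of 8 lower in the occlusion mean. The largest differences of this list were Gad1 at -2.52 (SE 0.65), Slc32a1 at -2.03 (SE 0.62) and Gad2 at -1.88 (SE 0.68). Only Dlx1 was higher, by 0.03 (SE 0.43). Oligodendrocyte markers, all 10 kept, were lower in the occlusion mean for 8. Over the 7 with a value on every array, their mean level was 2.13 to 2.66 on occlusion and 2.42 to 3.07 on control arrays. Choroid plexus markers were lower for 5 of 6 (-2.27 to -1.66 on occlusion and -2.68 to -1.38 on control arrays). The other, Ttr, was higher by 1.83 (SE 0.69), the largest difference of that list. Astrocyte markers were lower for 4 of 7. The 5 with a value on every array had a mean level of 0.19 to 0.89 on occlusion and 0.46 to 1.12 on control arrays. Microglial markers were lower for 4 of 7, endothelial for 1 of 5 and habenular for 3 of 6. The habenular mean level had the widest range of the lists. It lay between -2.62 and 0.46 on occlusion arrays and between -3.53 and 1.18 on control arrays, lowest on occlusion 3 and control 3. The part of these marker differences in the results below was not tested.

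No cyclase, phosphodiesterase or PKA gene passed the adjusted threshold: limma called 0 of the 33 genes at an adjusted p under 0.05, as it called 0% of all kept probes. At an unadjusted p under 0.05 there were 9 of 33 genes (27.3%), beside 11.1% of all kept probes. Of these 9, Adcy1, Pde4b, Pde4d, Pde7b and Prkar2b were higher in occlusion rats, and Pde1c, Pde6h, Pde8a and Pde8b were lower. Adcy1 passed the filter only through the occlusion arrays, so its entry in this count was favoured by the filter, and without it the count was 8 of 32 (25%). The background share was 6.48% of kept probes for higher and 4.61% for lower. The occlusion and control arrays did not overlap for 2 genes, Pde4b and Pde4d, or 6.06% of the 33 beside 6.71% of all kept probes. Both were higher in occlusion rats, and among all kept probes 3.9% were apart with a higher and 2.82% with a lower occlusion group. Over the 33 genes 18 had a higher and 15 a lower occlusion mean, a share of 54.5% higher beside 53.6% of all kept probes, and the median difference was 0.00. In whole tissue, fewer cells of a type and less RNA per cell cannot be told apart.

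**Figure D1:**
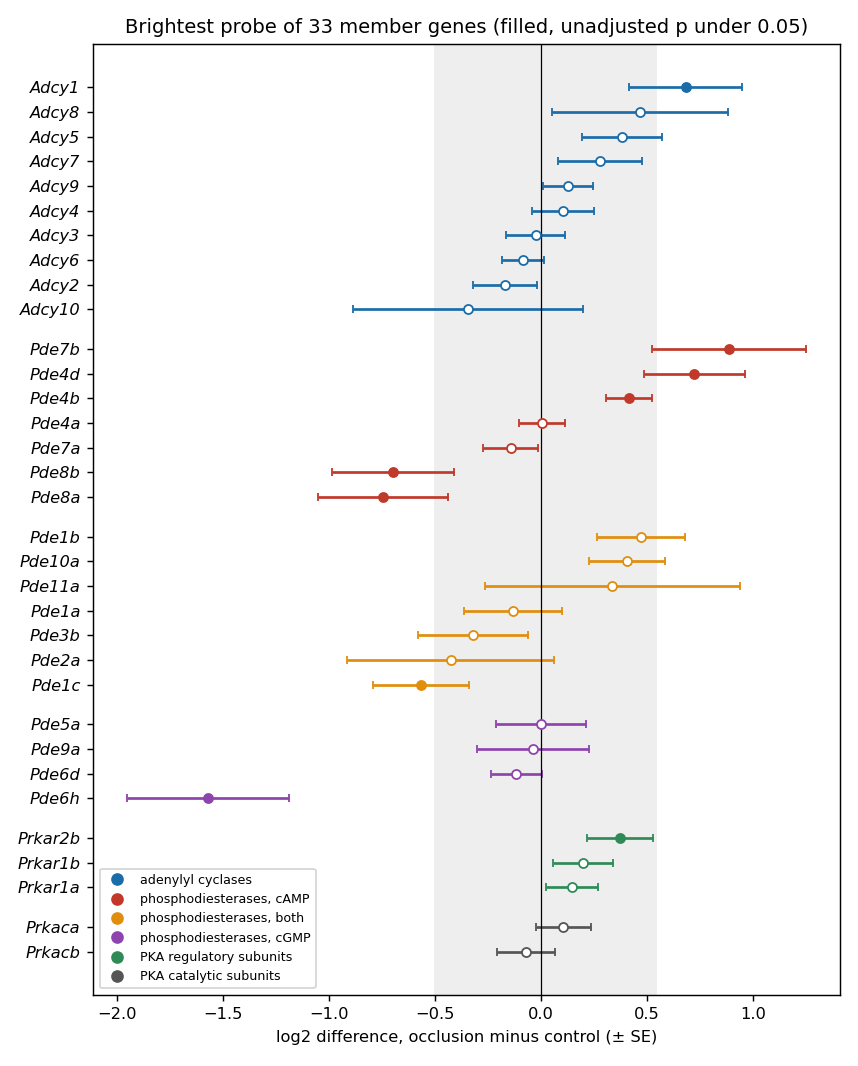
Log2 difference, occlusion minus control, of the brightest probe of each of the 33 genes with its standard error, grouped by family, over a grey band from the 5th to the 95th percentile of all kept probes (-0.50 to 0.54). Filled points mark the 9 genes at an unadjusted p under 0.05, of which Pde6h at -1.57 lies farthest from 0, and the Adcy1 point is set against control arrays that were not above background.

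The adenylyl cyclases were all kept, 10 of 10 genes. Their occlusion mean was higher for 6 and lower for 4, the median difference was 0.12, and limma called 0 at the adjusted threshold and 1 (10.0%) at an unadjusted p under 0.05, beside 11.1% of all kept probes. That gene was Adcy1, a calcium- and calmodulin-stimulated cyclase of neurons. It read -4.25, -4.46, -4.83 and -5.15 on occlusion arrays 1 to 4, against -5.12, -5.45, -5.93 and -4.92 on control arrays 1 to 4. The groups overlapped in part, since occlusion 4 lay below control 1 and control 4. The probe was well above background on all 4 occlusion arrays and on 0 of the control arrays, so the control readings are not measured levels. The means were -4.67 ± 0.40 in occlusion rats and -5.36 ± 0.44 in control rats (SD, n = 4 each), a difference of 0.68 (SE 0.27, limma adjusted p = 0.43). With lower control readings raised to the dimmest probe that each control array still measured above background, it was 1.53-fold higher in occlusion rats. That level is not this probe's own limit and the filter favoured this direction, so the fold is not a minimum.

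The other calcium-stimulated cyclases were Adcy8 and Adcy3. Adcy8 read 3.03, 2.80 and 2.50 on occlusion arrays 2 to 4, with occlusion 1 dropped as an outlier-marked spot, against 2.72, 2.55, 1.13 and 2.84 on control arrays. Control 3 stood 1.42 below its nearest neighbour among the controls, and the difference of 0.47 (SE 0.41) became 0.08 without that array. Adcy3 differed by -0.02 (SE 0.14), and its sign turned under other scalings of the arrays.

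Adcy5 and Adcy6 are the calcium-inhibited cyclases, and Adcy5 is the main cyclase of striatal neurons. Adcy5 read 2.47, 2.46, 2.48 and 2.13 on occlusion arrays, against 1.84, 1.58, 2.25 and 2.34 on control arrays. Of the occlusion arrays, 3 lay above every control array and the fourth lay within the control range. The difference was 0.38 (SE 0.19) and came to 0.24 without control 2. Adcy6 was the steadiest of the 33 genes, with all 8 arrays within 0.22 of each other and a difference of -0.08 (SE 0.10).

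Adcy2, Adcy4 and Adcy7 form the group that G-protein beta-gamma subunits stimulate. Adcy2 differed by -0.17 (SE 0.15, occlusion 4 not measured), Adcy4 by 0.10 (SE 0.15) and Adcy7 by 0.28 (SE 0.20). Adcy9, a widely expressed cyclase that forskolin activates poorly, differed by 0.13 (SE 0.12). These sizes rested in part on single arrays, since Adcy4 came to 0.00 without occlusion 2, and without control 3 Adcy7 came to 0.16 and Adcy9 to 0.04. Adcy10, the soluble cyclase that responds to bicarbonate, varied widely among controls, between -3.41 and -0.95, with occlusion arrays between -3.09 and -2.11 inside that range. Its difference of -0.34 (SE 0.54) was 0.11 without control 2.

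The phosphodiesterases that hydrolyse cyclic AMP alone, Pde4, Pde7 and Pde8, were all kept, 7 of 7 genes. Their occlusion mean was higher for 4 and lower for 3, with a median difference of 0.00. At an unadjusted p under 0.05 there were 5 of 7 (71.4%), 3 higher and 2 lower, beside 11.1% of all kept probes, and limma called 0 at the adjusted threshold.

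Pde4 enzymes are the rolipram-sensitive phosphodiesterases that carry out much of the cyclic AMP breakdown in brain. Pde4b read 0.53, 0.48, 0.52 and 0.53 on occlusion arrays, against 0.10, -0.06, 0.02 and 0.31 on control arrays. All 4 occlusion arrays lay within 0.05 of each other and above every control array. The means were 0.51 ± 0.03 in occlusion rats and 0.10 ± 0.16 in control rats (SD, n = 4 each), a difference of 0.42 (SE 0.11, limma adjusted p = 0.40). It was 0.32 within slide 1 and 0.52 within slide 2, and lay between 0.37 and 0.49 when any 1 array was left out.

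Pde4d, a family member with many long and short isoforms, read -0.95, -0.85, -1.06 and -1.52 on occlusion arrays, against -1.57, -1.65, -2.46 and -1.58 on control arrays. The gap between the groups was narrow, since occlusion 4 lay 0.05 above control 1, and control 3 stood well below the other controls. The means were -1.09 ± 0.29 in occlusion rats and -1.82 ± 0.43 in control rats (SD, n = 4 each), 1.65-fold higher in occlusion rats (difference 0.72, SE 0.24, limma adjusted p = 0.40). Without control 3 the difference was 0.51. Pde4a, the third member of the family on the array, differed by 0.00 (SE 0.11).

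Pde7 enzymes have high affinity for cyclic AMP and are insensitive to rolipram. Pde7b read -3.53, -3.45, -4.17 and -3.59 on occlusion arrays, against -4.38, -4.87, -5.42 and -3.62 on control arrays. Control 4 lay among the occlusion arrays, and the other controls lay below all of them. The means were -3.69 ± 0.33 in occlusion rats and -4.57 ± 0.76 in control rats (SD, n = 4 each), 1.85-fold higher in occlusion rats (difference 0.89, SE 0.36, limma adjusted p = 0.43). It differed by 0.15 within slide 1 and by 1.63 within slide 2, and its difference lay between 0.60 without control 3 and 1.21 without control 4. Pde7a differed by -0.14 (SE 0.13).

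Pde8 enzymes have the highest affinity for cyclic AMP and are not inhibited by most general phosphodiesterase inhibitors. Pde8a read -3.46, -4.21, -4.58 and -3.23 on occlusion arrays, against -3.05, -3.15, -2.82 and -3.48 on control arrays. Its difference was -0.74 (SE 0.30, limma adjusted p = 0.43), with means of -3.87 ± 0.63 in occlusion rats and -3.12 ± 0.27 in control rats (SD, n = 4 each). Occlusion 2 and 3 lay below every control array, and occlusion 1 and 4 lay within the control range. Pde8b read -4.80, -5.29, -5.01 and -4.62 on occlusion arrays, against -4.85, -3.84, -4.58 and -3.65 on control arrays. Control 1 lay among the occlusion arrays and the other controls above all of them. The means were -4.93 ± 0.29 in occlusion rats and -4.23 ± 0.58 in control rats (SD, n = 4 each), a difference of -0.70 (SE 0.29, limma adjusted p = 0.43). Both Pde8 genes had negative differences within slides 1 and 2, -0.76 and -0.73 for Pde8a and -0.66 and -0.74 for Pde8b.

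**Figure D2:**
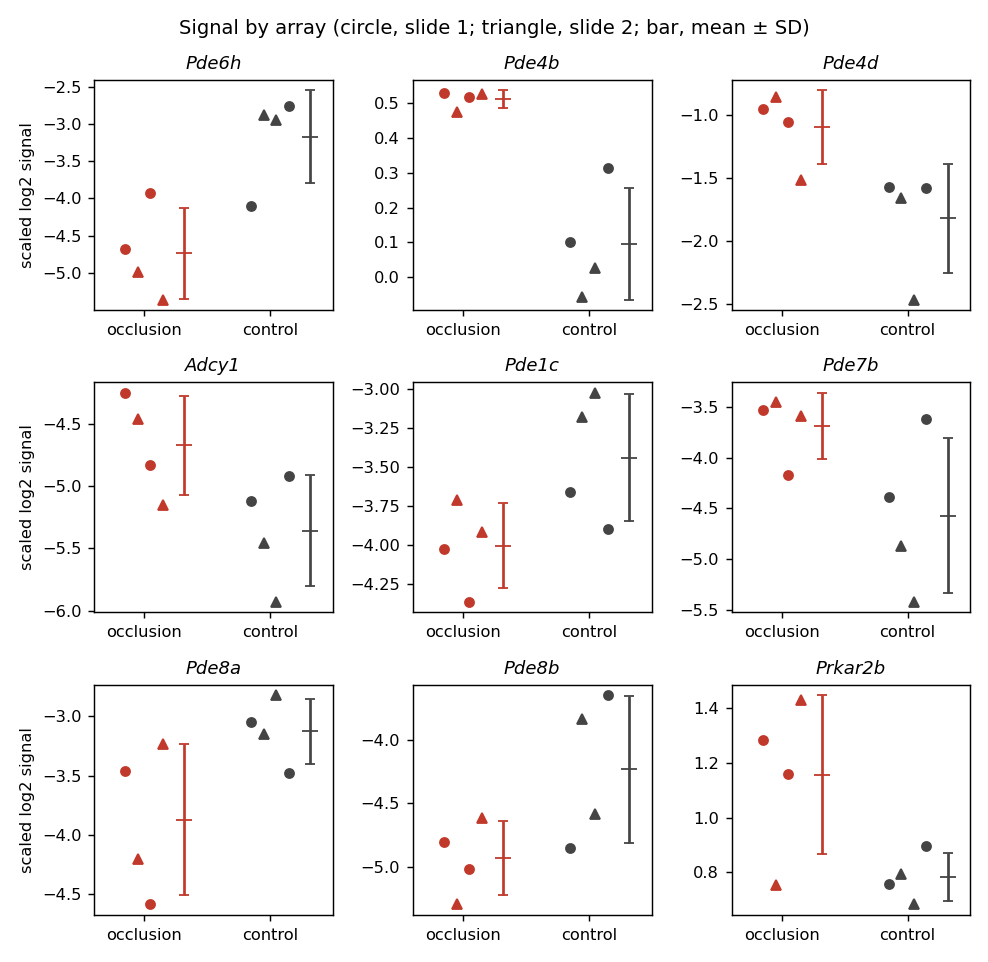
Scaled log2 signal on each array for the 9 genes at an unadjusted p under 0.05, occlusion arrays left of control arrays, circles for slide 1 and triangles for slide 2, with the group mean and SD. The groups are apart for Pde4b and Pde4d and overlap for the other 7, and each panel has its own vertical axis.

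The phosphodiesterases that hydrolyse both cyclic nucleotides, Pde1, Pde2, Pde3, Pde10 and Pde11, were kept for 7 of 8 genes. Their occlusion mean was higher for 3 and lower for 4, with a median difference of -0.13 and 1 gene at an unadjusted p under 0.05. Pde3a was well above background on 0 of the 8 arrays and is not described further.

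Pde1 enzymes are switched on by calcium and calmodulin. Pde1c read -4.03, -3.71, -4.37 and -3.92 on occlusion arrays, against -3.66, -3.18, -3.03 and -3.90 on control arrays. Every occlusion array lay below controls 1, 2 and 3, and control 4 lay among them. The means were -4.01 ± 0.27 in occlusion rats and -3.44 ± 0.41 in control rats (SD, n = 4 each), 1.48-fold lower in occlusion rats (difference -0.56, SE 0.22, limma adjusted p = 0.43). Pde1b, the form rich in striatal neurons, read 1.14, 0.80, 1.17 and 0.92 on occlusion arrays, against 0.71, 0.12, 0.29 and 1.02 on control arrays. Control 4 lay among the occlusion arrays and the other controls below them, with a difference of 0.47 (SE 0.21) and an adjusted p of 0.45 (limma). Pde1a differed by -0.13 (SE 0.23).

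Pde10a, the other phosphodiesterase known from striatal neurons, read 0.74, 0.48, 0.84 and 0.69 on occlusion arrays, against 0.47, -0.22, 0.54 and 0.36 on control arrays. Occlusion 2 lay within the control range and the other occlusion arrays above it. The difference was 0.41 (SE 0.18) and came to 0.24 without control 2. Striatal projection neuron markers, kept for 9 of 9 genes, had a mean level between -0.97 and -0.59 on occlusion arrays and between -0.89 and -0.19 on control arrays, with 7 of 9 lower in the occlusion mean, whereas Pde1b, Pde10a and Adcy5 had higher occlusion means.

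Pde2a, which cyclic GMP stimulates, read 0.53, 1.27, -0.53 and 0.96 on occlusion arrays, against 1.42, 1.53, 1.20 and -0.22 on control arrays. It had 1 low array in each group, occlusion 3 and control 4. The difference of -0.42 (SE 0.49) was -0.06 without occlusion 3 and -0.82 without control 4. Pde3b, which cyclic GMP inhibits, differed by -0.32 (SE 0.26). Pde11a had the widest spread of the 33 genes, 2.91 from lowest to highest array, and differed by 0.34 (SE 0.60), with 2 of the 4 control arrays well above background.

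The phosphodiesterase families specific for cyclic GMP, Pde5, Pde6 and Pde9, were kept for 4 of 7 genes. Their occlusion mean was higher for 1 and lower for 3, with a median difference of -0.08 and 1 gene at an unadjusted p under 0.05. Of the 4, Pde5a and Pde9a encode enzymes and Pde6h and Pde6d do not, so these values do not describe enzymes alone. The Pde6 genes encode the light-activated phosphodiesterase of the retina, and its catalytic subunit genes Pde6a, Pde6b and Pde6c were above background on at most 3 of 8 arrays and did not pass the filter.

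Pde6h, which encodes the inhibitory gamma subunit of the cone enzyme, had the largest difference of the 33 genes. It read -4.68, -4.995, -3.92 and -5.36 on occlusion arrays, against -4.10, -2.88, -2.95 and -2.75 on control arrays. Controls 2, 3 and 4 lay above every occlusion array, and control 1 lay below occlusion 3. The means were -4.74 ± 0.61 in occlusion rats and -3.17 ± 0.63 in control rats (SD, n = 4 each), 2.97-fold lower in occlusion rats (difference -1.57, SE 0.38, limma adjusted p = 0.40). The probe was well above background on all 8 arrays, and its difference came to -0.88 on slide 1 and -2.26 on slide 2. Without control 1 it was -1.88.

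Pde6d, a prenyl-binding protein that carries lipid-modified proteins rather than an enzyme, differed by -0.12 (SE 0.12). Pde9a, which has a high affinity for cyclic GMP, differed by -0.04 (SE 0.26), with 0.24 within slide 1 and -0.32 within slide 2. Pde5a, the target of sildenafil, differed by 0.00 (SE 0.21), and its sign turned under quantile normalisation.

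The regulatory subunits of PKA were kept for 3 of 4 genes, and all 3 had a higher occlusion mean, with a median difference of 0.20. The fourth, Prkar2a, was well above background on 3 of the 8 arrays, 1 below the minimum. Prkar2b, the type II beta subunit that is abundant in neurons, read 1.28, 0.75, 1.16 and 1.43 on occlusion arrays, against 0.76, 0.80, 0.68 and 0.90 on control arrays. Occlusion 1, 3 and 4 lay above every control array and occlusion 2 lay within the control range. The means were 1.16 ± 0.29 in occlusion rats and 0.78 ± 0.09 in control rats (SD, n = 4 each), 1.29-fold higher in occlusion rats (difference 0.37, SE 0.15, limma adjusted p = 0.43). The type I subunits Prkar1a and Prkar1b differed by 0.15 (SE 0.12) and 0.20 (SE 0.14).

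Neither catalytic subunit had an unadjusted p under 0.05. Prkaca, the alpha subunit, was read from a probe printed on 10 spots of each array, with -2.45, -2.38, -2.39 and -2.41 on occlusion arrays, against -2.41, -2.55, -2.81 and -2.27 on control arrays. The occlusion arrays lay within the control range, and the difference was 0.11 (SE 0.13), or 0.01 without control 3. Prkacb, the beta subunit, differed by -0.07 (SE 0.14), and its probe was saturated on 3 of the 4 control arrays.

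A check within genes was possible for the 7 that had more than 1 kept probe. For Pde4d all 3 probes were higher in occlusion rats, by 0.72 (SE 0.24), 0.58 (SE 0.20) and 0.22 (SE 0.18), in the order in which the sequences are printed above. Probe 2 also separated the groups, with -1.94, -1.69, -1.71 and -2.14 on occlusion arrays against -2.20, -2.44, -2.97 and -2.18 on control arrays (limma adjusted p = 0.40). Probe 3, which lies elsewhere in rn3, had overlapping groups and differed by -0.04 within slide 1 and 0.49 within slide 2 (limma adjusted p = 0.67).

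For Prkar2b the probes gave different sizes. Probe 1 differed by 0.37 (SE 0.15) and probe 2, which lies upstream, by 0.01 (SE 0.11, limma adjusted p = 0.98). The signs were opposite for Adcy6 (-0.08 and 0.10) and Adcy7 (0.28 and -0.19), with standard errors of 0.10 and 0.15 for Adcy6 and of 0.20 and 0.53 for Adcy7. The probes of Adcy9 (0.13 and 0.04) and Prkar1a (0.15 and 0.24) had 1 sign, and the 4 probes of Prkacb ran from -0.24 to 0.00.

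**Figure D3:**
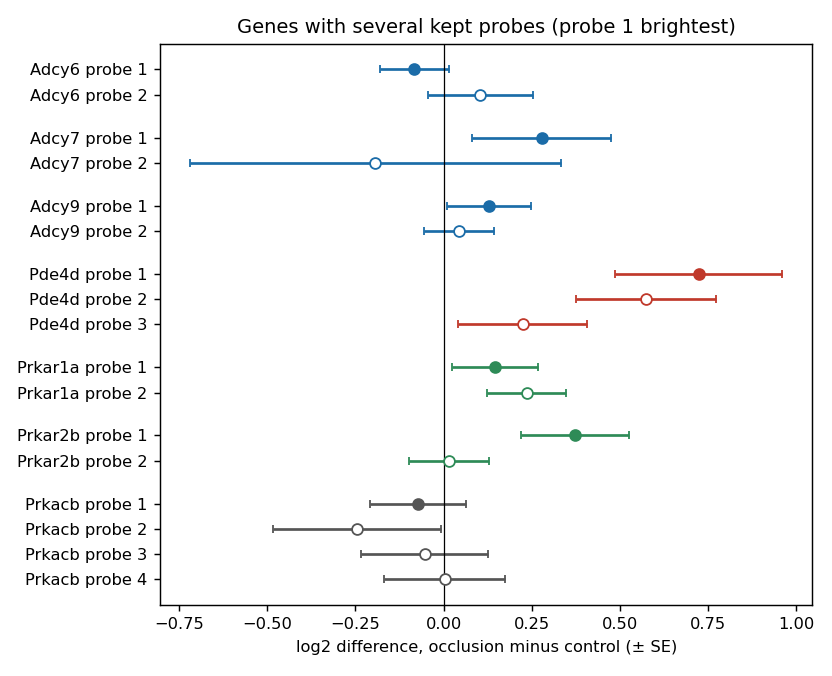
Log2 difference, occlusion minus control, with its standard error for every kept probe of the 7 genes with more than 1, the brightest probe filled and listed first. The 3 Pde4d probes lie at 0.72, 0.58 and 0.22, and the 2 Prkar2b probes at 0.37 and 0.01.

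Within slides the signs were the same for 26 of the 33 genes (78.8%), beside 61.5% of all kept probes with a value in both slides, and for all 9 genes at an unadjusted p under 0.05, beside 99.9% of all probes at that threshold. The threshold was applied to the same arrays, so nothing is read from the signs of these 9. With the slide as a block 12 of 33 genes (36.4%) had an unadjusted p under 0.05, beside 14.2% of all kept probes, and limma again called 0 at the adjusted threshold. The 3 genes added were Adcy7, Pde10a and Pde1b. Adcy1, whose entry was favoured by the filter, is also among the 12. Each slide held 2 arrays of each group, so a within-slide difference rests on 4 arrays.

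**Figure D4:**
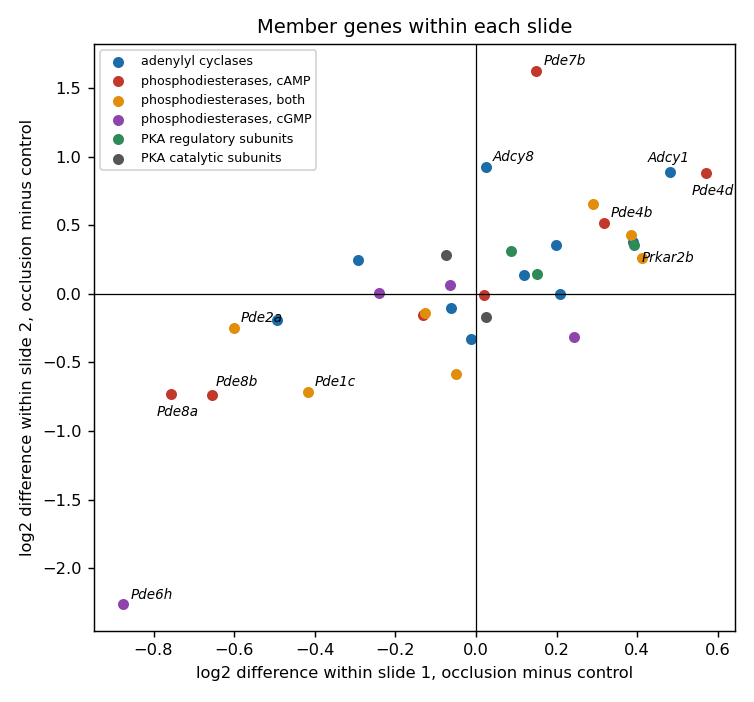
Log2 difference, occlusion minus control, within slide 1 (horizontal) and within slide 2 (vertical) for the 33 genes, coloured by family. Pde6h (-0.88 and -2.26), Pde8a, Pde8b and Pde1c lie in the lower left, and Pde4b, Pde4d, Adcy1, Pde7b and Prkar2b in the upper right.

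Adcy1, marked above background on 4 of 8 arrays, was the gene just inside the filter. Just outside, at 3 of 8, were Prkar2a with means of -5.55 in occlusion and -5.42 in control rats, Pde6c with -6.25 and -5.20, and a second Pde11a probe with -5.44 and -6.04, each pair in that order. Pde6b was marked on 2 arrays, and Pde6a, Pde3a and a second Pde1c probe on 0.

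The range over the 8 arrays differed widely among the genes, from 0.22 for Adcy6 to 2.91 for Pde11a, beside a median of 0.77 for all kept probes. Control 3 was the lowest array for 10 of the 33 genes (30.3%) and for 21.2% of all kept probes, and control 2 for 8 genes (24.2%) and 14.6% of kept probes. The 10 genes lowest on control 3 were Adcy1, Adcy10, Adcy7, Adcy8, Adcy9, Pde4d, Pde5a, Pde7b, Prkaca and Prkar2b. Control 3 was also the array with the lowest relay markers and the highest inhibitory neuron markers. Without control 3 the differences of Pde4d and Pde7b were 0.51 and 0.60, against 0.72 and 0.89 with it.

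The genes around cyclic AMP signalling were read from 6 lists of 65 genes, of which 57 were kept. The occlusion mean was higher for 28 and lower for 29, and the median difference was -0.02. limma called 0 of 57 at the adjusted threshold, with 7 (12.3%) at an unadjusted p under 0.05 beside 11.1% of all kept probes, and 5 (8.77%) whose groups did not overlap beside 6.71%. The 5 were Gnao1, Gnas and Prkg2 with higher and Akap1 and Gnai3 with lower occlusion groups, Akap1 and Gnas on fewer than 8 arrays. The Gnas probe was saturated on every array that measured it, so its size and its separation cannot be read, and without it the counts were 6 of 56 (10.7%) and 4 of 56 (7.14%).

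Among the G-protein alpha subunits that act on cyclases, all 7 were kept, 4 higher and 3 lower, with 3 (42.9%) at an unadjusted p under 0.05, the saturated Gnas among them, beside 11.1% of all kept probes. Gnao1, an inhibitory-class subunit abundant in brain, read 2.99, 2.81, 3.07 and 2.91 on occlusion arrays, against 2.58, 2.24, 2.22 and 2.52 on control arrays. The groups did not overlap, with a difference of 0.56 (SE 0.12, limma adjusted p = 0.40), and a second Gnao1 probe gave 0.52. Gnal, the stimulatory subunit of olfactory and striatal neurons, differed by 0.36 (SE 0.13, limma adjusted p = 0.41), with 0.20 and 0.23 on its other probes. Gnas, the general stimulatory subunit, differed by 0.16 (SE 0.22) on its second probe. Gnaz differed by 0.12 (SE 0.16). The 3 lower subunits were Gnai1 at -0.50 (SE 0.33), Gnai2 at -0.11 (SE 0.17) and Gnai3 at -0.33 (SE 0.15). The groups did not overlap for Gnai3 (limma adjusted p = 0.46).

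Anchoring proteins hold PKA at its sites in the cell, and the PKA inhibitor peptides block free catalytic subunits. Of 18 such genes 15 were kept, 6 higher and 9 lower. Akap14 differed by -0.88 (SE 0.33, limma adjusted p = 0.41) and Pkig, an inhibitor peptide, by -0.33 (SE 0.14, limma adjusted p = 0.44). Akap1, whose groups did not overlap, differed by -0.12 (SE 0.14), with 3 occlusion and 2 control arrays measured. Of 5 other cyclic AMP effectors, which include the exchange factors Rapgef3 and Rapgef4, 4 were kept, 1 higher and 3 lower, with none at an unadjusted p under 0.05.

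The transcription arm was read from CREB, its relatives and coactivators together with PKA-regulated phosphatase inhibitors, and from known target genes. In the first list 10 of 12 genes were kept, 8 higher and 2 lower, with a median difference of 0.03. In the second all 14 were kept, 6 higher and 8 lower, with a median difference of -0.03. On the brightest probes neither list had a gene at an unadjusted p under 0.05. A second probe of Crebbp, a CREB coactivator, differed by 0.57 (SE 0.18), against 0.02 (SE 0.10) on its brightest. Sst and Nr4a2 among the targets also stand in the inhibitory neuron and habenula marker lists.

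Cyclic GMP is made by guanylyl cyclases and read out by its own kinases, and of 9 such genes 7 were kept, 3 higher and 4 lower, with 2 (28.6%) at an unadjusted p under 0.05 beside 11.1% of all kept probes. Prkg2, a cyclic GMP-dependent kinase, read -1.49, -1.67, -1.66 and -1.70 on occlusion arrays, against -2.26, -2.65, -2.19 and -1.85 on control arrays. The groups did not overlap, with a difference of 0.60 (SE 0.17, limma adjusted p = 0.40). Gucy1a2, a subunit of the soluble guanylyl cyclase that nitric oxide activates, differed by 0.40 (SE 0.17, limma adjusted p = 0.44), and its other probe by 0.49. Prkg1, the other cyclic GMP-dependent kinase, differed by -0.19 (SE 0.29) on its brightest probe and by -0.59 (SE 0.25) on a second.

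**Figure D5:**
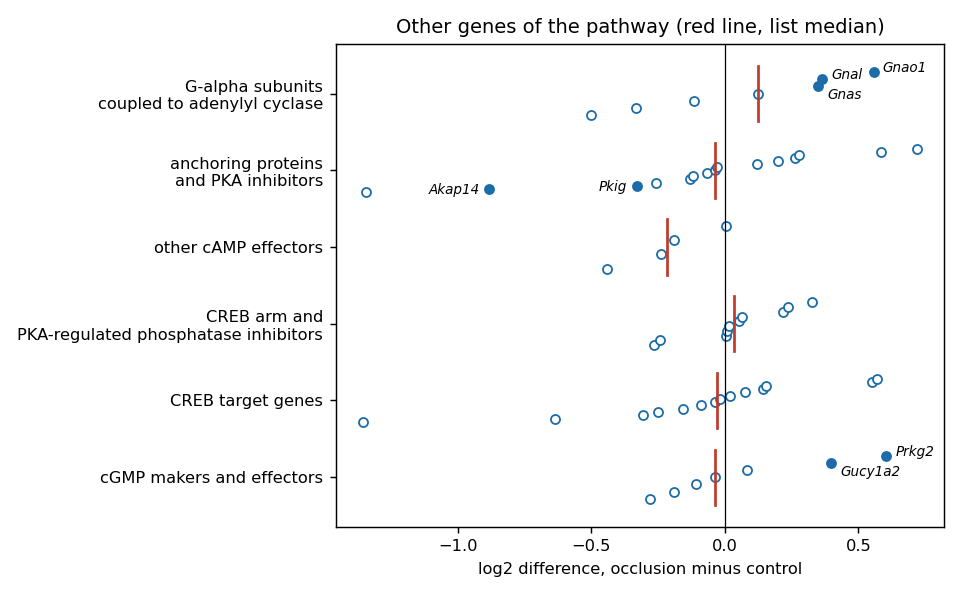
Log2 difference, occlusion minus control, of the brightest kept probe of 57 other genes of the pathway in 6 lists, with a red line at each list's median and filled points for the 7 genes at an unadjusted p under 0.05. The medians run from -0.22 (other cyclic AMP effectors) to 0.12 (G-protein alpha subunits).

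CREB, the transcription factor that PKA phosphorylates, binds the palindrome TGACGTCA or its shorter part TGACG. Promoter windows of 250 bases before to 50 bases after the start site, from RefSeq on GRCr8, were matched by symbol for 27 of the 38 genes and gave 40 windows. The palindrome was in 0 of the 40 windows, beside 1.83% of 33469 windows of all genes. The short motif, sought on both strands as TGACG or CGTCA, was in 10 of the 40 windows (25%), beside 21.2% of all windows. It was found in windows of 8 genes, Adcy7, Adcy9, Pde10a, Pde4a, Pde4d, Pde8a, Prkaca and Prkacb. The stretches around it are printed for Pde4d and Pde8a, which had an unadjusted p under 0.05, and for Pde10a, which did with the slide as a block. Adcy7 also did with the slide as a block, and its stretch, cut short by the window's end, is not printed. The motif is in capitals and positions are in GRCr8.
Pde4d, chr2:42592499-42592542, plus strand: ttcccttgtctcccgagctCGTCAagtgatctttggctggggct
Pde4d, chr2:42592535-42592579, plus strand: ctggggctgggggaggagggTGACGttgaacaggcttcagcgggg
Pde4d, chr2:42767578-42767622, plus strand: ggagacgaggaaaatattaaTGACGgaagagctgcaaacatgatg
Pde8a, chr1:144575363-144575407, plus strand: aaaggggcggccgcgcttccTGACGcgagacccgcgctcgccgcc
Pde10a, chr1:54765823-54765867, minus strand: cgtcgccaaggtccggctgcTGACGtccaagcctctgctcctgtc
Pde10a, chr1:54765748-54765792, minus strand: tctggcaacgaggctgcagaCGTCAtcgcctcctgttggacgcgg

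The motif began 231, 194 and 19 bases before a Pde4d start site, the first pair in 1 window and the last in another. It began 86 bases before the Pde8a start site and 179 and 104 bases before that of Pde10a. Pde4d and Pde10a had higher and Pde8a lower occlusion means. A match is a description of the window and not a binding site.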

How the data were processed

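Medial thalamus RNA of 8 rats was measured on 1-colour arrays. The authors deposited each array's Agilent Feature Extraction output (9.5.1.1, rn3, per the file headers), whose processed signal is a background-subtracted intensity. The deposited value table holds the same intensity (largest difference 0.497%). Here log2 of it was scaled to each array's 75th percentile over non-control spots, outlier-marked spots were dropped, and spots of a probe were averaged. Kept probes were well above background on at least 4 arrays with at least 2 values per group; 1100 of 27154 lacked a value on some array.

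Groups were compared with limma 3.58.1 (lmFit, eBayes, two-sided) in R 4.3.3, with Benjamini-Hochberg adjustment over all kept probes. Each gene was read from its brightest probe. Values on every array are given for genes at an unadjusted p under 0.05 or with groups that did not overlap, for the smallest p of a family, and for some chosen after their values were seen (Adcy5, Adcy8, Pde1b, Pde10a, Pde2a). Members and lists were chosen with earlier results of these data known. Names are the array's, and chromosomes in GRCr8 come from RefSeq.

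Replicate numbers are shared across the groups, and same-numbered deviations correlated at 0.355, 0.514, -0.071 and -0.293. Numbers 1 and 2 each shared a slide across the groups, and numbers 3 and 4 did not. The check therefore cannot tell pairing from slide, and the main fit did not pair the rats. The labels state 4 animals per group, and p-values measure the spread between them; their number limits the precision. The alternatives tried were normexp with an offset of 50, quantile and median scaling, other filters, averaged probes, the value table, trended robust variance, slide and replicate blocks, each slide alone, and leaving out each array. The limma script was tested on simulated data.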

Additional observations from a re-analysis of the deposited data

Results flagged for a closer look

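Of 64 groups of 4 arrays examined, 7 held an array set far from the other members of its group, and chance alone sets about 1 group in 20 apart in this way. Among occlusion arrays, Adcy5 was lowest on occlusion 4 at 2.13, with the next at 2.46, and Pde3b was highest on occlusion 2 at -2.92, with the next at -3.34. Among control arrays, control 3 was lowest for Adcy8 at 1.13 (next 2.55) and for Pde4d at -2.46 (next -1.65). Control 2 was lowest for Adcy6 at 2.05 (next 2.18) and for Pde6d at 1.76 (next 1.88), and control 1 was lowest for Pde6h at -4.10 (next -2.95).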

How the results depend on the processing

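With 4 arrays a group and no adjusted call, every difference above is a size with its spread. Calls at the adjusted threshold stayed at 0 for the 33 genes under every alternative run, and 1 of all kept probes was called after normexp. At an unadjusted p under 0.05, all kept probes numbered 1769 on slide 1 alone against 3010, and the 33 genes 2 on slide 1 alone against 9. Leaving out 1 array gave between 3 (without control 2) and 10 (without control 4) of the 33 genes, with 4 without occlusion 1 and 5 without occlusion 3, and between 4 (without control 2) and 10 (without control 4) of the other pathway genes against 7. With the replicate number as a block, 0 probes were called, 2833 had an unadjusted p under 0.05, and 8 of the 33 genes did. Whether that number pairs the rats could not be told. Small differences turned sign, and the cause was not tested. Quantile normalisation gave Adcy3 0.00105 and Pde5a -0.0353, scaling to the median gave Adcy3 0.000557, averaging probes gave Adcy6 0.0109, and the value table gave Pde5a -0.002. Slide 1 alone gave Pde5a -0.0656, Pde9a 0.242, Prkaca -0.0738 and Prkacb 0.0258, and slide 2 alone gave Adcy3 0.244, Pde4a -0.0124 and Pde6d 0.00642. Leaving out 1 array spanned -0.708 to 0.110 for Adcy10, -0.117 to 0.0649 for Adcy3, -0.0374 to 0.0665 for Pde4a, -0.227 to 0.742 for Pde11a, -0.294 to 0.0396 for Pde1a, -0.151 to 0.108 for Pde5a and -0.198 to 0.158 for Pde9a. Adcy1, Pde7b, Pde11a and Pde5a lay near background on some arrays. Pde6h and Pde8b were well above background on all 8 arrays. Their lowest occlusion arrays, at -5.36 and -5.29, still read below Adcy1 on control 4 (-4.92), which was not.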
